A study of Mus musculus with 4 samples.

Results

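The 10 protein-coding genes described here were those with the strongest CTCF peak at an end of the gene, among 6349 with any such peak and 21774 protein-coding genes in all. They were Vps36, Vps18, Ap5s1, Nipsnap2, Sh3glb1, Erlin2, Gdf15, Pkn3, Apba1 and Zbtb45. They were chosen by the joint strength of that peak, the authors' sum of the −log10 p of the matched peak in both replicates, so the strengths, the replicate values and the widths of these 10 peaks are described and not tested. A peak was counted at an end when its summit lay within 1 kb of either bound of the gene in RefSeq (GRCm38.p6). The peaks came from 2 CTCF immunoprecipitations with 2 input libraries, all from untreated wild-type primary cortical neurons. The neurons, from Swiss-Webster cortex taken at embryonic day 16, had grown for 13 days in culture in both kinds of library. The deposited list held 33820 joint peaks of the replicates, with an irreproducible discovery rate (IDR) no higher than 0.05. It gives no read counts, so the depth behind each value is unknown. It also gives no expression values, so the neuronal identity of the cultures was not checked here.

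CTCF is a DNA-binding protein with a row of zinc fingers that read a long GC-rich core sequence. Together with the ring-shaped cohesin complex it anchors chromatin loops, and many of its sites lie at promoters, where a loop anchor and a transcription start coincide. The 10 genes have no single function. Vps36, Vps18 and Ap5s1 act in endosomes, Sh3glb1 in membrane bending and autophagy, Nipsnap2 in mitochondria and Erlin2 in the endoplasmic reticulum. Gdf15 encodes a secreted cytokine, Pkn3 a serine/threonine kinase, Apba1 a neuronal adaptor and Zbtb45 a zinc finger protein.

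At 5 of the 10 genes the summit itself lay inside the promoter window of the RefSeq table, which spans 250 bases before to 50 bases after a start. Their sequences are shown because they are the DNA under the strongest promoter summits of the list. These are the joint summits, and at Sh3glb1 the summit in the second replicate column lay 950 bp from that in the first, outside the stretch shown. Each is the part of the window outside the bounds of the gene, 5′ to 3′ on the gene's own strand (GRCm38.p6). Capitals mark matches to the 12-position CTCF core consensus with up to 1 mismatch, on either strand. The stretch at Nipsnap2 is chr5:129724825-129725015 (+ strand, summit at base 186), that at Sh3glb1 chr3:144720409-144720585 (− strand, summit at base 55) and that at Vps36 chr8:22192583-22192832 (+ strand, summit at base 203). The stretch at Ap5s1 is chr2:131210110-131210359 (+ strand, summit at base 54) and that at Vps18 chr2:119288492-119288741 (+ strand, summit at base 130).
Nipsnap2: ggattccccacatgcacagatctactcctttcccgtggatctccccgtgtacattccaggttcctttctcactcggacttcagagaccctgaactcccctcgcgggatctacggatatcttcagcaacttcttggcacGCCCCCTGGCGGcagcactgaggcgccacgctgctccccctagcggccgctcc
Sh3glb1: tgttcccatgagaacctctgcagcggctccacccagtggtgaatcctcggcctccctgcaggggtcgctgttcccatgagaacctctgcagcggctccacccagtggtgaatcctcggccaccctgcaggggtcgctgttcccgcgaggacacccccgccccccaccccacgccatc
Vps36: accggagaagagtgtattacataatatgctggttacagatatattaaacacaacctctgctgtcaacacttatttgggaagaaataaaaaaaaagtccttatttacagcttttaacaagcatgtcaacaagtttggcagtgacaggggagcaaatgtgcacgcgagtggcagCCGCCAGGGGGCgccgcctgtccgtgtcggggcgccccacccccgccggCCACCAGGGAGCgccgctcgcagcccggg
Ap5s1: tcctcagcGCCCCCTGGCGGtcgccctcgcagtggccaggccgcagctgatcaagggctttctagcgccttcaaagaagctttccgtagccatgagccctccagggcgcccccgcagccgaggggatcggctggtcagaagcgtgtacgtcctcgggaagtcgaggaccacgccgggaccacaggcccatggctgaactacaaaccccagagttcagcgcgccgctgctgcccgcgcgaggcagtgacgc
Vps18: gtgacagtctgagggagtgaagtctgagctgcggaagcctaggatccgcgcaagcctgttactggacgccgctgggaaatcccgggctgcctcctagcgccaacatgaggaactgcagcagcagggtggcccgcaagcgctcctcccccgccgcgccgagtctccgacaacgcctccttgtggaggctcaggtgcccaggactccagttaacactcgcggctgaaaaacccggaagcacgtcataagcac

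Matches to the core lay close to the summit at 3 of these 5 genes. Vps36 held 2 matches, CCGCCAGGGGGC and CCACCAGGGAGC, centred 24.5 bp from the summit on either side of it. Nipsnap2 and Ap5s1 held the same 12 bases, GCCCCCTGGCGG, which is the core read on the opposite strand. Its centre lay 41.5 bp from the summit at Nipsnap2 and 39.5 bp at Ap5s1, before the summit on the gene's strand at both. Vps18 and Sh3glb1 had no match. The Sh3glb1 stretch instead contained a tandem repeat: its first 52 bases recurred exactly from base 69, 68 bases further along. The bases between these exact runs recurred too, almost exactly, after the second run. The copies thus adjoin, and the summit at base 55 fell in the first copy. In the other 4 stretches no run longer than 8 bases recurred.

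Over all promoter windows of protein-coding genes, 4.53% of 21263 held a core with up to 1 mismatch, and among the 1644 windows that held a summit 25.8% did. The exact core was in 0 of the 11 windows of the 9 genes in the promoter table, where 0.56% of all windows and 5.6% of windows with a summit held it. The allowance of 1 mismatch was chosen after the exact search gave no match. With the shorter motif CANNAGNGG on both strands, 5 of the 11 windows of the 9 genes had a match, against 18.9% of all windows. Among windows that held the summit, 2 of the 5 had one, against 27.9% of all windows with a summit. The shorter matches at Ap5s1 and Vps36 lay 172 and 145 bp from their summits and did not overlap the capitals above. A match is a description of these letters and was not tested as a binding site. The GC content of the 5 windows that held the summit had a median of 66.7%, against 63.8% in all windows with a summit and 56.3% in all windows.

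Among the endosomal genes, Vps36 encodes the ubiquitin-binding subunit of the complex ESCRT-II. Its peak (chromosome 8, 22191951 to 22193661) stood at 1481 in the first of the list's replicate columns, against 1389 in its second, a joint strength of 2870. The summit lay 48 bp before the transcription start. Vps18 is a core subunit of the tethering complexes HOPS and CORVET. It had 1195 in the first column and 1233 in the second (chromosome 2, 119288086 to 119289110), with the summit 121 bp before the start. At 1025 bp this was the narrowest of the 10 peaks, at percentile 40.2 of width in the list. Ap5s1 encodes the small subunit of the adaptor complex AP-5. Its peak (chromosome 2, 131209085 to 131210626) had 1247 and 1400 in the columns, and its summit lay 197 bp before the start.

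Nipsnap2 encodes a mitochondrial protein that marks damaged mitochondria for autophagy in human cells. Its peak, of 2028 bp, had 1791 in the first column and 1810 in the second, the highest joint strength at an end of the protein-coding genes ranked. The summit lay 6 bp outside the bound of the gene and 65 bp before the start in the promoter table. Sh3glb1, also called endophilin B1, had 1533 in the first column and 1849 in the second. This was the largest gap between columns among the 10, at 0.27 on the log2 scale of the second over the first. It was also the peak whose summits differed between replicates, by 950 bp: position 144720530 in the first column and 144719580 in the second, which is inside the gene. At the other 9 genes the replicate summits lay 5 to 27 bp apart, and over all peaks the median was 29 bp. Erlin2 encodes a membrane protein of the endoplasmic reticulum that takes part in the degradation of calcium channels there. Its peak (chromosome 8, 27022983 to 27024201) had 1179 and 1083 in the columns and a width of 1219 bp, with the summit 285 bp inside the lower bound of the gene.

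Gdf15, a stress-induced cytokine that acts on a receptor in the hindbrain, was the exception in position. Its peak (chromosome 8, 70629277 to 70631166) had 1253 and 1398 in the columns, and its summit lay inside the gene 526 bp from the end where transcription finishes. That is 2176 bp beyond the nearest start. Pkn3 had 1196 in the first column and 1142 in the second (chromosome 2, 30076703 to 30078765). Its summit was 55 bp inside the lower bound of the gene and 1095 bp before the start in the promoter table. Apba1, also called Mint1, binds the amyloid precursor protein and the secretory machinery of synapses. Its peak (chromosome 19, 23757678 to 23760118) had 1152 and 1150 in the columns and was the widest of the 10, at 2441 bp. Zbtb45 had 1115 and 1138 (chromosome 7, 13008837 to 13010616), with the summit 151 bp beyond the start, inside the gene.

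**Figure D1:**
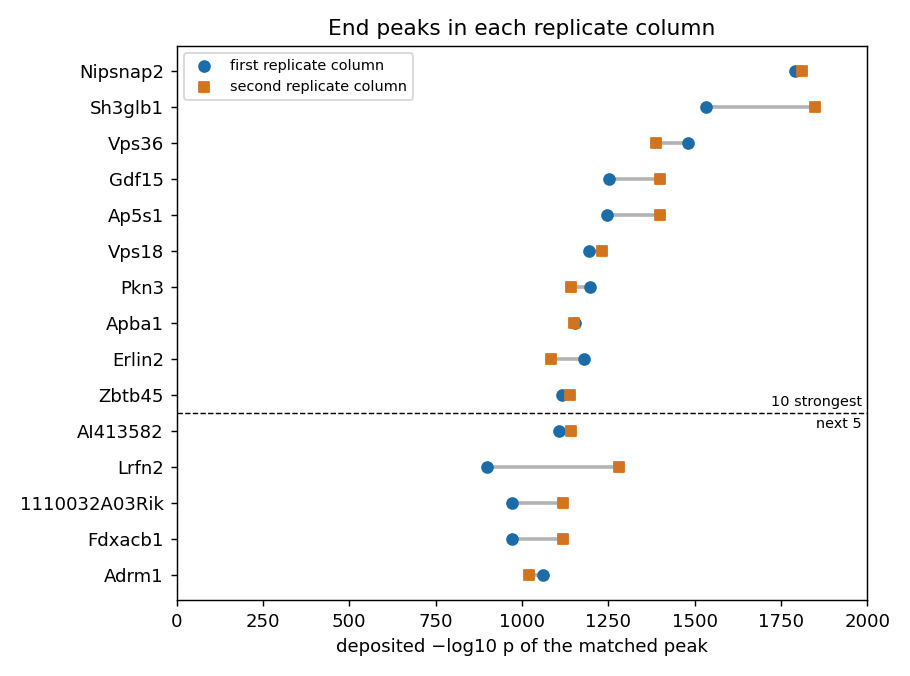
Deposited −log10 p of the end peak in the first (circles) and second (squares) replicate column for the 10 genes, above the dashed line, and for the 5 genes next in joint strength. All 10 genes lie between 1083 and 1849 in both columns, and the columns differ most at Sh3glb1 among them.

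Across the 10 genes, the first column ran from 1115 to 1791 and the second from 1083 to 1849. The second column was higher at 6 genes and the first at 4, Vps36, Pkn3, Apba1 and Erlin2. The log2 of the second over the first column had a median of 0.02 and ran from −0.12 to 0.27. The columns were thus nearly equal at every one of these peaks. Over the whole list the median was 1.91, and the first column was higher in 9.26% of peaks. In the strongest decile of the list the median was 0.75. Other peaks at protein-coding gene ends had a median of 0.40. The 13 peaks elsewhere that were as strong as the 10 had a median of 0.24, from −0.20 to 2.15, and the first column was higher in 3 of them. The highest of these log2 values lay on an unplaced contig. Values in a column depend on the depth of its library, so equal values do not show equal occupancy in the cultures.

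**Figure D2:**
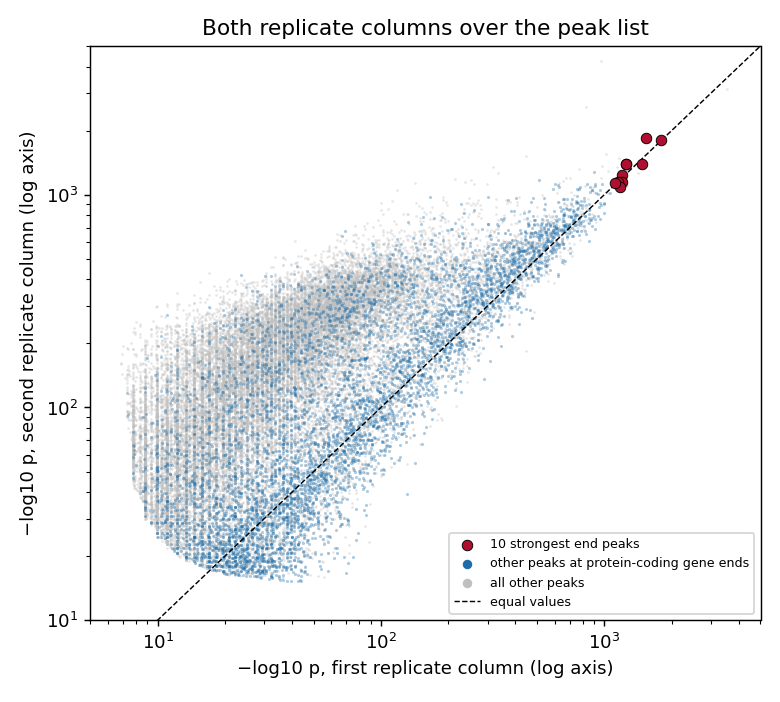
Second against first replicate column for every peak of the list, both axes logarithmic, with the 10 strongest end peaks in red, other gene-end peaks in blue and the remaining peaks in grey. The 10 lie at the upper end of the line of equal values, along which many weaker gene-end peaks also lie, while most grey peaks lie above it.

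The limit between the tenth gene and the next was narrow. Zbtb45 had a strength of 2253 and Erlin2 2263, while the first gene outside, AI413582, had 2248 (1106 and 1142 in the columns). Lrfn2 followed at 2180, with an uneven 900 and 1280. Then came 1110032A03Rik and Fdxacb1, which share a single peak of strength 2091, and Adrm1, a proteasome ubiquitin receptor gene, at 2082. By the first column alone the same 10 genes were the highest. By the second alone 7 of them were: Pkn3, Zbtb45 and Erlin2 stood at ranks 11, 12 and 21, and Lrfn2, Atp5g2 and AI413582 took their places. Among all peaks of the list the 10 held ranks from 3 to 23.

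The joint peaks of the 10 genes had a median width of 1835 bp (1025 to 2441), against 1309 bp at other gene ends and 1123 bp over all peaks. The 13 other peaks of the same strength had a median of 1690 bp. Width went with strength through the list: the median was 767 bp in the weakest decile and 1570 bp in the strongest. Apba1, Pkn3 and Nipsnap2 were the widest of the 10, at 2441, 2063 and 2028 bp, and Erlin2 and Vps18 the narrowest, at 1219 and 1025 bp. In the first replicate column Apba1 was 1826 bp wide and in the second 2441 bp, while Ap5s1 was 1449 bp in the first and 904 bp in the second. Width and strength come from the same peak calls, so this is no independent property of the genes.

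**Figure D3:**
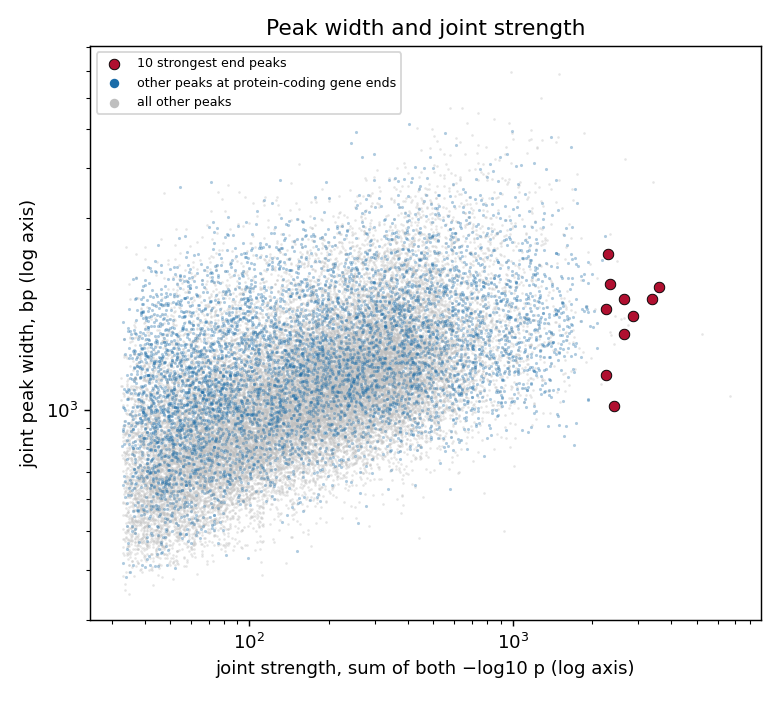
Joint peak width in bp against joint strength for every peak, both axes logarithmic, coloured as in the plot of the replicate columns. The 10 strongest end peaks, in red, span 1025 to 2441 bp, a range that many weaker peaks also fill.

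Each of the 10 peaks stood at an end that no other gene shared. No gene of any kind had an end within 1 kb of the summit at any of the 10 genes, while 32.1% of the 6349 genes with an end peak shared it with another gene and 21.7% with another protein-coding gene. Because genes were ranked, a shared peak would have taken more than 1 place, as at 1110032A03Rik and Fdxacb1. The closest end of another gene was that of the lncRNA gene Gm34154, 2644 bp from the Gdf15 summit. The closest of another protein-coding gene was that of Set, a histone chaperone gene, 5026 bp from the Pkn3 summit. Mrps17, a mitochondrial ribosomal protein gene, ended 6298 bp from the Nipsnap2 summit and Ckap2, a spindle protein gene, 6966 bp from that of Vps36. At Apba1 the nearest other gene, Ptar1, was 25479 bp away.

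Other genes overlapped 3 of the 10, none of them at the end with the peak. The lncRNA gene Gm34076 lay wholly inside Apba1. Vps36 overlapped Thsd1 by 16 bp at its upper end, and Pkn3 overlapped Zdhhc12 by 81 bp at its upper end, and neither junction held a summit within 1 kb. Of the 9 genes with a strand in the promoter table (all but Erlin2), 8 had the peak nearer the start of the gene and Gdf15 nearer its finish. Among all 5026 genes with an end peak and a strand, 80.7% had it nearer the start. The summit lay in a promoter window at 5 of the 9 genes, against 25.7% of those 5026. Vps18 alone had another peak at its other end (chromosome 2, 119296955 to 119298994, strength 211), which was so for 6.74% of genes with an end peak.

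The peaks around the genes were far weaker than the end peaks. Within the genes and 50 kb on either side lay 52 other summits, 1 to 11 per gene with a median of 5, against a median of 4 for other genes with an end peak. Their strengths had a median of 195, against 166 over all peaks, and ran from 36.2 to 1164. The end peak exceeded the strongest other peak 18.2-fold at Nipsnap2, 13.2-fold at Sh3glb1 and 10.2-fold at Vps36, but only 2.39-fold at Gdf15 and 2.09-fold at Vps18. These ratios follow in part from the choice of the strongest end peaks. Of the 52, 49 were higher in the second column and 3 in the first, and over all peaks the first was higher in 9.26%. The log2 of the second over the first column had a median of 1.41 among the 52, against 1.91 over all peaks.

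Vps36 had the emptiest surroundings, with a single further peak, 26.3 kb away at the end of the kinase gene Nek3 (strength 281). Pkn3 had the most, 11, none above 374. Only Gdf15 and Vps18 had a neighbour above 1000. That of Gdf15 lay 18974 bp below its summit beside Ssbp4 (chromosome 8, 70610287 to 70612497), with 537 and 571 in the columns. A further strong peak of that region, at 880, lay 150 bp from an end of Lsm4, which encodes a protein of the RNA splicing machinery. That of Vps18 lay 49.5 kb above its summit, 2481 bp beyond the Notch ligand gene Dll4 (119337479 to 119338570), with 563 and 602. Ap5s1 had its strongest neighbour, at 653, 197 bp from an end of the centromere protein gene Cenpb. Zbtb45 had one of 355 inside Trim28, a corepressor gene, 331 bp from an end of Gm31649, and Erlin2 one of 486 beside Zfp703.

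Sh3glb1 had the nearest further peak of all 10, 3138 bp away outside the gene, at 32.4 in the first column and 223 in the second. Apba1 had the farthest, 102.2 kb away. Of the 10 genes, 3 held a further summit inside, and the median per gene was 0, as it was for the other genes with an end peak (upper quartile 1). Apba1, which spans 190.8 kb, held 3 (86.1 to 297), and Nipsnap2 and Sh3glb1 held 1 each (114 and 195). Of the 10 genes, 3 lay on chromosome 2 (Ap5s1, Vps18 and Pkn3) and 3 on chromosome 8 (Vps36, Gdf15 and Erlin2), which hold 8.11% and 5.72% of genes with an end peak.

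**Figure D4:**
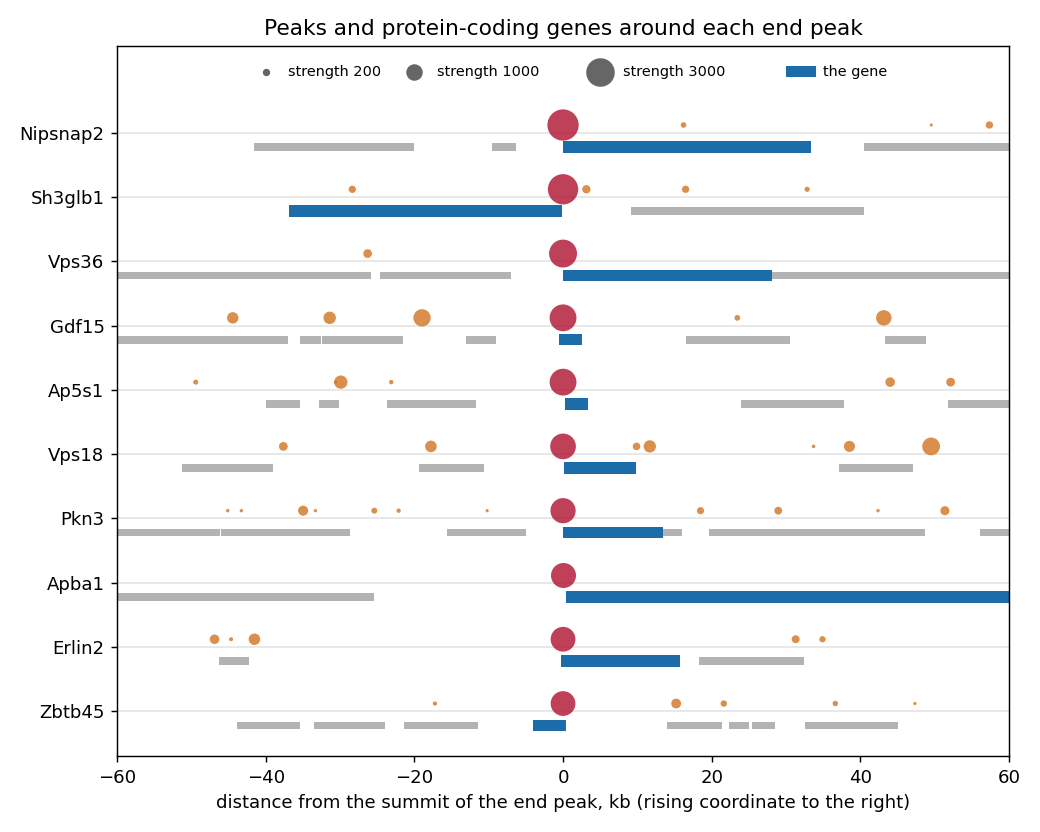
Peaks (circles, area in proportion to joint strength) and protein-coding genes (grey bars, the named gene in blue) around each end peak, by distance from its summit in kb. The end peak, in red at 0, is the largest circle in every row, further peaks of Apba1 lie outside the range drawn, and Gdf15 and Vps18 have the largest circles elsewhere.

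Relatives and complex partners of the 10 genes carried an end peak in part of the cases, and none as strong, as the choice of genes fixes. Of 47 such genes in 10 lists, 22 had a peak at an end (46.8%, against 29.2% of all protein-coding genes). Their median strength was 107 where a peak was present, against 174 over all genes with an end peak. Restricted to peaks over the second column's median, 10 of the 47 had one (21.3%, against 13.1% of all). Restricted to peaks over the first column's median, 17 did (36.2%, against 21.1%). The lists hold related genes chosen for these families, and no test was made of the shares.

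The other subunits of ESCRT-II, Snf8 and Vps25, had no end peak. Nearest summits lay 3007 and 1640 bp from their ends. In the HOPS and CORVET complexes, Vps16 (404), Vps11 (67.6) and Vps39 (50.1) had weaker ones, while Vps8, Vps33a, Vps41 and Tgfbrap1 had none. Among the proteins of AP-5, Ap5z1 had 636 and its partner Zfyve26 70.1, and Ap5b1, Ap5m1 and Spg11 had none. Beside the subunits chosen for their peaks, Ap5z1 thus had the strongest peak of these endosomal complexes, within the strongest decile of the list (502 and above). That peak lay nearer the finish of Ap5z1 and was uneven, with 128 in the first column and 508 in the second.

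Endophilins came closest. Sh3gl1 had 1839, rank 35 of the genes with an end peak, Sh3glb2 389 and Sh3gl2 62.3, and Sh3gl3 had none. Apba2, the other neuronal adaptor of the family, had 864 (446 and 418 in the columns), and Apba3 had none. Pkn2, a relative of Pkn3, had a weak peak of 59.4. No end peak was listed at Nipsnap1, Nipsnap3a, Nipsnap3b or Erlin1. Gdf1 had 1321 and Gdf7 401, the strongest of 5 among 10 relatives of Gdf15, and Gfral, which encodes the Gdf15 receptor, had none. The peak of Gdf1 lay nearer its finish and was also the end peak of Upf1 and Cers1. Of 11 relatives of Zbtb45, 6 had one, led by Zbtb33 (738), which encodes the methyl-DNA binder Kaiso, and Zbtb7b (527).

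**Figure D5:**
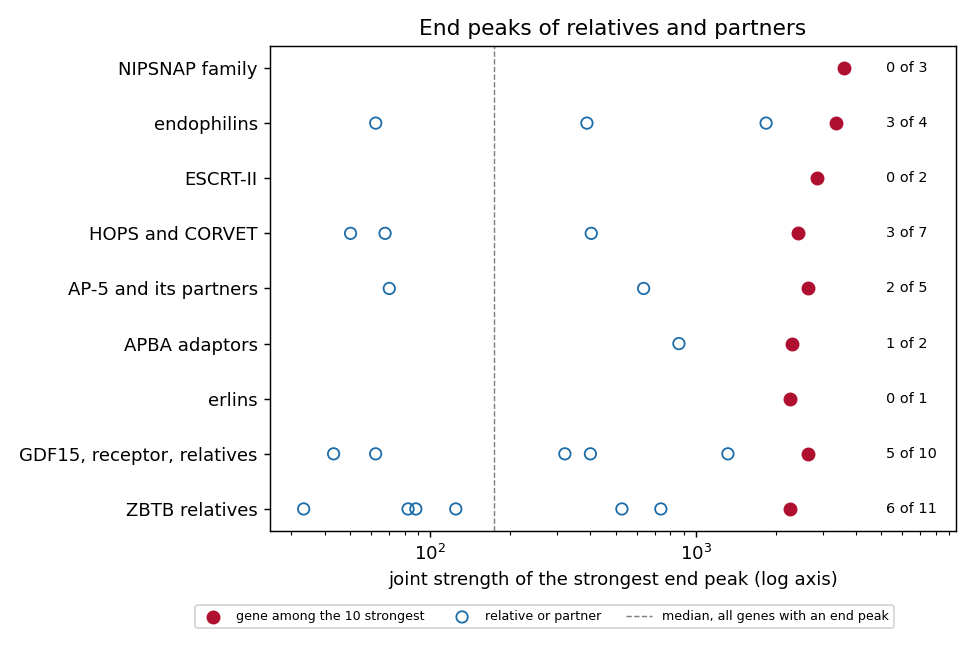
Joint strength (log axis) of the strongest end peak of the genes described (red) and of relatives or complex partners that have one (open blue), by list, with the list of Pkn3 not drawn, with the number with a peak at the right and the median of all genes with an end peak as a dashed line. In every list the red point is the strongest, as the choice of genes fixes, and the closest open point is Sh3gl1 at 1839.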

How the data were processed

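CTCF chromatin immunoprecipitation and sequencing was done in 2 replicates with 2 inputs. Per the labels' protocols, cells were fixed for 10 minutes in 1% formaldehyde and DNA was sheared to 200 to 500 bp. The submitters' processing notes name MACS2, BWA, SAMtools, Trimmomatic and FastQC, with GRCm38.p6 and mm10 as builds. Versions, thresholds and the role of the inputs were not given in the sources used here. Each row of the deposited table has 20 columns in the layout of the IDR program. The −log10 p values of the matched peaks in both replicates, and the sum of these, are the authors' deposited values. The deposited score, a rescaled IDR, was not used, and all 10 peaks stood at 5, the cap of the deposited −log10 IDR. Columns are not tied to a labelled replicate. Gene bounds and promoter sequences came from RefSeq tables of GRCm38.p6, and 9 of 10 genes matched the promoter table. Scaffold genes were left out. The genes, lists and windows were chosen with earlier results of these data known, and no significance test was made. Named neighbours were the nearest and those at the strongest further peak. The relatives and partners were listed from families and complexes of the 10 genes, and 1 of them is counted but not reported by name here. Alternatives were other windows, any base of a peak, an IDR of 0.01, each column alone, other distances and other motifs. Only the assignment of peaks to gene ends was checked on simulated peaks, planted at known ends. Python 3.11.15, numpy 2.4.6, pandas 2.3.3 and matplotlib 3.10.9 were used.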

Additional observations from a re-analysis of the deposited data

How the results depend on the processing

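No paired analysis was possible because no test was made and the list gives no values for inputs. With windows of 500 bp, 9 of the 10 genes stayed among the 10 highest (Gdf15 left), with any base of the peak 8 and with windows of 5 kb 5. By each replicate column alone, the number ran from 7 to 10. With windows of 5 kb, 3 genes shared the end with another gene, Gdf15, Vps18 and Erlin2, each with a non-coding gene or pseudogene, against 55.0% of genes with an end peak. With 500 bp 0 did, against 21.8% of genes with an end peak, and with any base of the peak 0 did, against 38.6%. The 52 further peaks became 21 within 20 kb, 79 within 100 kb and 28 among peaks above the median strength. Relatives and partners with an end peak numbered 36 of 47 with windows of 5 kb (76.6%, against 51.3% of all), and 10 to 17 among peaks above the median of one or the other column. The CTCF core with 1 mismatch was found at 3 genes, against 4.53% of all promoter windows and 25.8% of those with a summit. The shorter motif was found at 5 genes, against 18.9% and 27.9% of these windows. The exact core was found at 0, against 0.56% and 5.6%. The excess in median width over the list, 712 bp, was 628 bp at an IDR of 0.01 and 518 bp against peaks above the median strength. Unknown depth limits every comparison of the columns.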

Other observations

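Some of the strongest peaks of the list fell outside the window of 1 kb at a gene end but within 5 kb of one. With windows of 5 kb, a peak of 3556 and 3137 in the columns was assigned to the predicted gene Gm40369. A peak of 1312 and 1429 was then shared by Cilk1, a kinase gene of primary cilia, and Fbxo9, which encodes a ubiquitin ligase subunit. Arid3a, a transcription factor gene, and Kiss1r, the kisspeptin receptor gene, shared one of 1408 and 1269, which any base of the peak also gave them.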
